A study of Gallus gallus with 12 samples.

Results

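Glycolysis, the pentose phosphate pathway and the tricarboxylic acid (TCA) cycle were followed through 44 genes chosen by symbol. They encode glucose and lactate carriers, the enzymes of the 3 pathways and the kinases of pyruvate dehydrogenase. Of these, 39 are listed under the chosen symbol among the 24358 genes of the table. They are 17 of glycolysis and lactate, 18 of the TCA cycle with its entry at pyruvate, and 4 of the pentose phosphate pathway. All 39 were tested, among the 15284 genes that reached 10 reads in 3 or more libraries. Another 4 were found under a different symbol that the RefSeq annotation pairs with them, SLC2A3 as SLC2A14, PGK1 as PGK2, PKM as PKLR and PDHA1 as PDHA2. These 4 are given under the names chosen here and are kept out of the counts unless stated. RPE was not matched. The gene listed as TKT carries an identifier (ENSGALG00000005309) that RefSeq names TKTL1, so its values belong to one transketolase gene whose name is not settled.

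Messenger RNA was sequenced from chicken retinas and from retinoblastoma lines called DMC cells, with 3 libraries in each of 4 groups and 1 retina or 1 line behind each library. The E14 retinas came from embryos of embryonic day 14 that had not been electroporated, and the labels give their genotype as normal. All DMC lines came from White Leghorn retinas electroporated at embryonic day 3.5 with a piggyBac plasmid in which the ubiquitous CAG promoter drives human MYCN and GFP. They were taken into culture at embryonic day 14. The young lines DMC8, DMC9 and DMC10 had been in culture for less than 4 weeks, the old lines DMC1, DMC2 and DMC3 for over 200 days. The T58A lines DMC4, DMC5 and DMC6 carried MYCN-T58A, a MYCN with a changed threonine that makes the protein more stable. Their time in culture was also over 200 days. DMC cells grow as clusters in suspension in RPMI medium according to the growth protocol, whereas the column of DMC6 is labelled DMEM and those of DMC4 and DMC5 RPMI. A retina holds all its cell types and the lines are tumour cells in culture, so medium, cell type and MYCN cannot be told apart in a contrast with the retinas. In such bulk RNA, fewer cells of a type and less RNA per cell cannot be told apart either.

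Glycolysis splits glucose into pyruvate, which lactate dehydrogenase turns into lactate or which the pyruvate dehydrogenase complex passes on to the TCA cycle as acetyl-CoA. The pentose phosphate pathway branches off at glucose 6-phosphate and yields NADPH and ribose for nucleotides. The retina is known for making much lactate even with oxygen at hand, and MYC proteins are known to raise the transcription of many glycolytic genes.

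The libraries held between 20984957 and 35088450 reads assigned to genes. The deposited values are read counts divided by scaling factors, but 1 library's genes do not all share 1 factor. Whole reads were therefore recovered, and each library was scaled by its own total and its own factor from the trimmed mean of M-values (TMM). Values below are these normalized counts, which are not divided by gene length, so levels are compared between libraries and never between genes. Within a group they are given in the order of retina 1, 2 and 3, of DMC8, DMC9 and DMC10, of DMC1, DMC2 and DMC3, and of DMC4, DMC5 and DMC6. A gene was called differentially expressed (DE) at an adjusted p of at most 0.05 and a log2 fold change of at least 1 in limma. Log2 fold changes are differences of mean log2(normalized count + 1), given with 1 standard error after ±, and p values are adjusted over all 15284 genes. Each library is 1 retina or 1 line, with 3 in each group. The p values rest on the spread within groups, shared over all 4 groups. A wide spread in 1 group therefore also widens the standard errors of contrasts without it.

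Markers of cell types set the groups apart as follows. The dividing cell markers MKI67, TOP2A, CDK1 and PCNA summed to between 2882 and 3132 in the retinas, 38434 and 51767 in the young lines, 28129 and 60359 in the old lines, and 10236 in DMC4, 67929 in DMC5 and 19272 in DMC6. All 3 bipolar markers were called lower in each DMC group, with a sum of 57263 to 67300 in the retinas and 372 to 10242 in the lines. Of 5 amacrine markers 4 were called lower in each. Of 3 horizontal cell markers 1 was called lower in each, with a sum of 6962 to 7980 in the retinas and 651 to 3356 in the lines. Of 4 Muller glia markers 1 was called higher and 2 lower in young and in old lines, and 0 and 2 in T58A lines. Of 6 ganglion cell markers 2 were called higher and 3 lower in young, 1 and 2 in old, and 1 and 3 in T58A lines, and ISL1, a ganglion and bipolar factor, was at 0 in 8 lines. Of 4 pigment epithelium markers 2 were called higher in each DMC group, and 1 was called lower in old lines. Their sum was 178 to 218 in the retinas and 23394 to 73137 in the lines. In the lines most of that sum is PMEL, a pigment granule protein gene. Haemoglobin genes summed to 1701 to 9157 in the retinas and to at most 29.7 in the lines. Of 4 photoreceptor markers 2 were called higher and 0 lower in young, 2 and 1 in old, and 1 and 1 in T58A lines. ARR3 was at 109 to 392 in the retinas, 6817 to 10123 in the young, 1009 to 1930.5 in the old and 136 to 349 in the T58A lines. RXRG was at 8824 to 11857 in the retinas, 1709.5 and 1312 in DMC4 and DMC6 and 13563 to 31908 in the other 7 lines. OTX2 was at 25620.0 to 27318 in the retinas and lower in every line, at 3829 and 6657 in DMC4 and DMC6 and 9044 to 17555 in the other 7. DMC4 and DMC6 stood apart over all genes too, with correlations of 0.853 to 0.904 to the 6 lines with wild-type MYCN, where DMC5 had 0.924 to 0.958. Some results of the T58A lines are therefore also given without DMC4 and DMC6, in a fit in which DMC5 is the only T58A line and is assumed to vary as the other groups do. Reads assigned to the transgenes were at most 2 reads in a retina. They made up 0.528% of reads in DMC5, against 2.17% in DMC4, 1.99% in DMC6 and 1.54% to 2.70% in the young and old lines. DMC5 was thus the line with the lowest transgene share. The part of cell types, division or medium in any difference below was not tested.

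In DMC cells the enzyme genes were called higher than in E14 retina far more often than lower. In young DMC cells 24 of the 39 members were called higher and 2 lower, against a background of 20.5% of all genes called higher and 23.0% called lower. In old DMC cells 20 were called higher and 3 lower (background 20.3% and 23.5%), and in T58A DMC cells 16 were called higher and 1 lower (background 19.6% and 24.8%). The median log2 fold change of the members was 1.29, 1.24 and 0.70 in young, old and T58A lines, where that of all genes was -0.03, -0.05 and -0.10. With the 4 genes listed under another symbol, 27, 23 and 19 of 43 were called higher. With DMC5 as the only T58A line, the median of the members was 1.34 and that of all genes -0.09. Without DMC5, 10 of 39 members were called higher and 2 lower in the T58A contrast, as were 3159 and 3923 of all genes. With all 3 lines 16 and 1 members were called, and 2999 and 3795 of all genes. Leaving out DMC5 thus lowered the higher calls of the members but not those of all genes. The median of the members without DMC5 was 0.59 and that of all genes -0.10. The single lower call of this contrast, ENO2, became 2 or 3 when DMC1, DMC2, DMC4, DMC6 or retina 1 was left out. With library totals in place of the TMM scaling the T58A split was 13 higher and 4 lower (2424 and 4349 of all genes, where the TMM scaling gave 2999 and 3795), and with the deposited values as they stand 9 and 4 (2076 and 4694). For young lines library totals gave 17 and 2 (2200 and 4653) and the deposited values 19 and 2 (2489 and 4060). For old lines they gave 19 and 4 (2316 and 4494) and 21 and 3 (2830 and 3751). With library totals the young calls of HK1, PFKL, GAPDH, IDH3A, SUCLG1, SUCLA2 and TKT were lost. Lost likewise were the old call of HK1 and the T58A calls of PFKP, PDK4 and TKT. The 3 contrasts share the same 3 retinas, so they are not independent of each other.

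In all 3 contrasts 15 members were called higher. They were PFKM, PFKP, ALDOC, PGAM1, ENO1 and LDHB of glycolysis, PDK4, DLAT, CS, IDH2, IDH3A, DLST, MDH1 and MDH2 of the TCA cycle list, and TKT. The TCA cycle list also holds the PDK kinases, which inhibit entry into the cycle, and the cytosolic enzymes ACO1, IDH1 and MDH1. Of all genes 13.7% were called higher in all 3. No member was called lower in all 3. By pathway, 12 of 17 glycolysis and lactate genes were called higher in young, 8 in old and 7 in T58A lines, 11, 11 and 8 of 18 TCA cycle genes, and 1 of 4 pentose phosphate genes in each. For 18 of the 39 members every one of the 9 lines lay above every retina, which 21.6% of all genes did, and for 2 (ENO2 and IDH1) every line lay below every retina, which 25.9% of all genes did. As a share of all reads, the 39 members took 1.06% to 1.25% in the retinas, 3.53% to 4.42% in the young lines, 2.58% to 3.90% in the old lines, and 1.37%, 2.28% and 1.64% in DMC4, DMC5 and DMC6. This share does not depend on the TMM factors. The glycolysis and lactate genes made up most of it, with 0.84% to 1.04% of reads in the retinas and 1.09% to 4.08% in the lines. In limma fits of each DMC group with the retinas alone, 26, 22 and 12 members were called higher in young, old and T58A lines. So were 3572, 3341 and 2702 of all genes. In these fits the T58A calls of PFKP, IDH2, MDH1 and TKT were lost, at adjusted p of 0.059 to 0.0853.

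**Figure D1:**
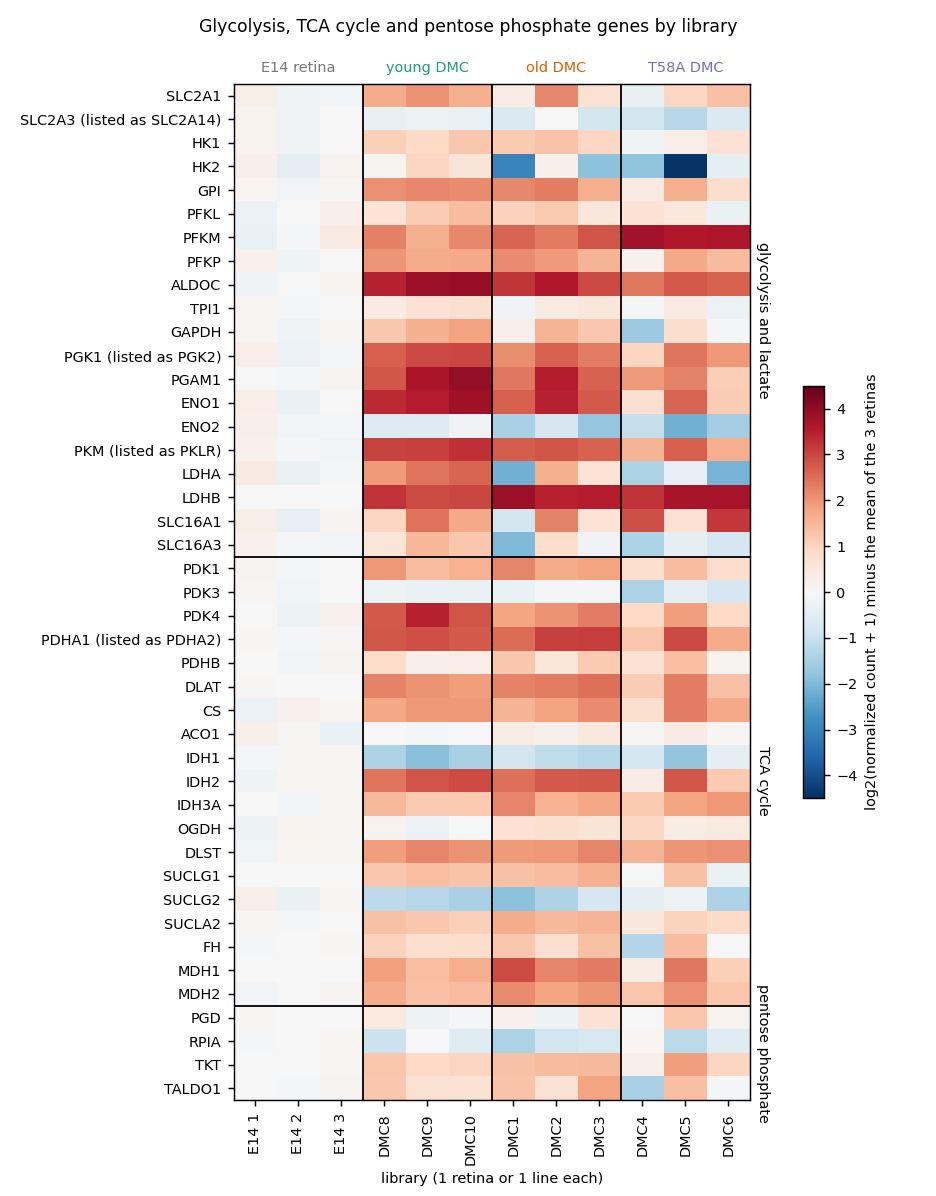
Level of each gene (rows, by pathway) in each library (columns, by group) as log2(normalized count + 1) minus the mean of the 3 retinas, red above and blue below. Most glycolysis and TCA cycle genes are red in all young and old lines, DMC4 and DMC6 are paler in both blocks, and HK2 and LDHA change colour among the lines.

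Glucose enters through the SLC2A carriers and is trapped by hexokinases. SLC2A1, the main glucose carrier of many tissues, was at 3765, 2824 and 2909.6 in the retinas, 10077, 12788 and 9599 in the young, 3955, 14054 and 5093 in the old and 2462, 5998 and 7889 in the T58A lines. All 3 young lines lay above the retinas, DMC2 was the highest of all libraries and DMC4 lay below every retina. Only the young contrast was called, at a log2 fold change of 1.77 ± 0.48 with adjusted p = 0.00866. Old lines stood at 1.06 ± 0.48 with adjusted p = 0.0798 and T58A lines at 0.64 ± 0.48 with adjusted p = 0.279. SLC2A3, a carrier typical of neurons, was between 2637 and 3281 in the retinas and 1244 and 2881 in the lines. In the T58A contrast it passed the adjusted p but not the fold limit (-0.90 ± 0.22 with adjusted p = 0.00539).

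HK1, the hexokinase found in most cells, was at 5514, 4389.9 and 4811 in the retinas, 10243, 9046 and 11250.4 in the young, 10952, 11965 and 9235 in the old and 4266, 6030.5 and 7732 in the T58A lines. The young and old lines lay above all retinas, at 1.05 ± 0.22 with adjusted p = 0.002 and 1.13 ± 0.22 with adjusted p = 0.00134. DMC4 lay below all 3 retinas and the T58A contrast gave 0.26 ± 0.22 with adjusted p = 0.343. Without DMC10 or retina 2 the young value of HK1 was 0.98 in both cases, under the fold limit. HK2, the hexokinase of muscle and of many tumours, was at 7935, 5075 and 7560.4 in the retinas, 7338, 13054 and 10116 in the young, 850.2, 7829.8 and 1882 in the old and 1915, 315 and 5117 in the T58A lines. Its values among the lines spanned from 315 in DMC5 to 13054 in DMC9 and overlapped the retinas. None of the contrasts was called, and the log2 fold changes were 0.56 ± 0.92 with adjusted p = 0.635, -1.53 ± 0.92 with adjusted p = 0.179 and -2.21 ± 0.92 with adjusted p = 0.0614. Without DMC4 and DMC6 the T58A value of HK2 was -4.41 ± 0.92 (adjusted p = 0.00332), and it then rests on DMC5 alone.

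GPI, which turns glucose 6-phosphate into fructose 6-phosphate, was at 8376, 7277 and 8193 in the retinas, 33369, 35877 and 34906 in the young, 35430.0, 38696 and 24871 in the old and 10355, 24826 and 13814 in the T58A lines. Every line was above every retina. Young and old lines were called, at 2.13 ± 0.29 with adjusted p = 1.26e-04 and 2.03 ± 0.29 with adjusted p = 1.77e-04. T58A lines missed the fold limit at 0.94 ± 0.29 with adjusted p = 0.0179.

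Phosphofructokinase, the main point of control of glycolysis, is built from the subunits PFKM, PFKL and PFKP. PFKM, the muscle subunit, was at 84.3, 99.5 and 133 in the retinas, 503, 319 and 464 in the young, 642, 528 and 739 in the old and 1424, 1264 and 1318 in the T58A lines. The groups did not overlap, with retinas lowest, then young, old and T58A lines. Log2 fold changes to retina were 2.01 ± 0.26 with adjusted p = 9.21e-05, 2.59 ± 0.26 with adjusted p = 1.74e-05 and 3.67 ± 0.26 with adjusted p = 1.89e-06. PFKP, the platelet subunit, was at 5476, 4203 and 4802 in the retinas, 19013, 15206 and 15524 in the young, 20835, 17901 and 13957 in the old and 5493, 15673 and 12840.5 in the T58A lines. It was called in all 3 contrasts (1.78 ± 0.33, 1.85 ± 0.33 and 1.11 ± 0.33), and DMC4 was the line nearest to the retinas. Its T58A call was lost without DMC5 (0.81), DMC6 (0.95) or retina 2 (adjusted p = 0.0571). PFKL, the liver subunit, was at 3316, 3996 and 4617 in the retinas, 6074, 8603 and 10301 in the young, 8051, 8829.8 and 5651 in the old and 6117, 5525 and 3193 in the T58A lines. Only the young contrast was called (1.05 ± 0.29 with adjusted p = 0.01), and DMC6 lay below all 3 retinas. The young call was lost without DMC10 (0.88) or retina 1 (0.92).

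The aldolase gene ALDOC, whose enzyme splits the sugar into triose phosphates, had the largest rise of all members in young lines. It was at 8083, 8998 and 10236 in the retinas, 99418, 129737 and 136368 in the young, 84046, 109917 and 71128 in the old and 46469, 61189 and 56505 in the T58A lines. This is 13.3 times the retina level in young, 9.59 in old and 6 in T58A lines. On the log2 scale the changes were 3.74 ± 0.25 with adjusted p = 1.72e-06, 3.26 ± 0.25 with adjusted p = 3.37e-06 and 2.58 ± 0.25 with adjusted p = 1.30e-05. TPI1, which interconverts the triose phosphates, ranged from 9293 to 10276 in the retinas and from 8129 to 15823 in the lines. No contrast was called, and the largest log2 fold change was 0.58 ± 0.23 with adjusted p = 0.0512 in young lines.

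GAPDH, the enzyme that oxidizes triose phosphate, was at 84493, 71556 and 82498 in the retinas, 185432, 239777 and 279386 in the young, 92053, 228166 and 184586 in the old and 25674, 138440 and 74469.5 in the T58A lines. All young and old lines lay above the retinas, although DMC1 did so by little, and DMC4 was below, DMC6 among and DMC5 above them. The young lines were called (1.55 ± 0.55 with adjusted p = 0.035), the old (0.99 ± 0.55 with adjusted p = 0.154) and T58A lines (-0.30 ± 0.55 with adjusted p = 0.664) were not. GAPDH is often used to scale measurements of mRNA, and here it ran from 25674 to 279386. The young call was lost when DMC9, DMC10 or any 1 of the 3 retinas was left out, with adjusted p of up to 0.1.

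PGK1, the first ATP-forming enzyme, was at 8958, 6163 and 7156 in the retinas, 47568, 57814 and 58547 in the young, 31195, 46764 and 35835 in the old and 14261, 39330.1 and 28255 in the T58A lines. Each contrast was called (2.89 ± 0.33, 2.35 ± 0.33 and 1.78 ± 0.33). PGAM1, phosphoglycerate mutase, was at 13082, 12504 and 14647 in the retinas, 92909.7, 172198 and 205358 in the young, 69044, 155428 and 83576 in the old and 50196, 63043 and 28504 in the T58A lines. Every line exceeded every retina, and the fitted fold was 11.1 in young, 7.21 in old and 3.35 in T58A lines. The log2 values were 3.47 ± 0.41 with adjusted p = 4.39e-05, 2.85 ± 0.41 with adjusted p = 1.70e-04 and 1.74 ± 0.41 with adjusted p = 0.0039.

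The 2 enolase genes went apart. ENO1, the enolase of most tissues, was at 32376, 21224 and 25878 in the retinas, 266390, 305580 and 366751 in the young, 167545, 291125 and 177960 in the old and 44179.6, 158580 and 58120.5 in the T58A lines. All 3 contrasts were called (3.57 ± 0.46 with adjusted p = 7.87e-05, 2.98 ± 0.46 with adjusted p = 2.76e-04 and 1.51 ± 0.46 with adjusted p = 0.0161). Every line exceeded every retina, with DMC4 and DMC6 nearest to them and DMC10 highest. The T58A call of ENO1 was lost without DMC5 (0.96) or retina 2 (adjusted p = 0.0672). ENO2, the enolase of neurons, was at 6368, 4940.3 and 5070.0 in the retinas, 3587, 3660.1 and 4801 in the young, 1969, 3183 and 1615 in the old and 2584, 1221 and 1839.8 in the T58A lines. Every line was below every retina. Old (-1.33 ± 0.30 with adjusted p = 0.00332) and T58A lines (-1.59 ± 0.30 with adjusted p = 0.00104) were called lower, young lines (-0.45 ± 0.30 with adjusted p = 0.234) were not. PKM, pyruvate kinase, was at 25033, 21081 and 20449.9 in the retinas, 180651, 186248 and 216767 in the young, 147715, 158880 and 138063 in the old and 64251, 143747 and 67945 in the T58A lines. Each contrast was called (3.13 ± 0.33, 2.74 ± 0.33 and 1.95 ± 0.33).

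Lactate dehydrogenase is a tetramer of A subunits, typical of lactate-making tissue, and B subunits, typical of lactate-using tissue. LDHB was at 2768, 2657 and 2725 in the retinas, 25615, 20766 and 21607 in the young, 39225, 30976 and 31090.2 in the old and 25588, 35389.5 and 35576 in the T58A lines. On average the lines exceeded the retinas by 8.31-fold, 12.3-fold and 11.7-fold in young, old and T58A lines, with little spread within a group. The log2 fold changes were 3.05 ± 0.19 with adjusted p = 1.24e-06, 3.63 ± 0.19 with adjusted p = 4.38e-07 and 3.55 ± 0.19 with adjusted p = 5.23e-07. LDHA was at 22396, 13876 and 16582 in the retinas, 65265, 90909.8 and 106180 in the young, 3839.9, 52578 and 26696 in the old and 6373, 13214 and 4002 in the T58A lines. The young lines lay above all retinas, the T58A lines below all of them, and the old lines on both sides. DMC1 was lowest of all libraries and DMC2 was 13.7 times higher than DMC1. LDHA was called higher in young lines (2.31 ± 0.77 with adjusted p = 0.0248) and was not called in old (0.02 ± 0.77 with adjusted p = 0.984) or T58A lines (-1.31 ± 0.77 with adjusted p = 0.169). The young call was lost without DMC9, DMC10, or retina 2 or 3, with adjusted p of up to 0.0762.

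Lactate leaves or enters cells through the monocarboxylate carriers SLC16A1 and SLC16A3, the latter known for export. SLC16A1 was at 1331, 870.1 and 1217 in the retinas, 2200.1, 6148 and 3686 in the young, 637, 5286 and 1729.9 in the old and 8456, 1791 and 10270.3 in the T58A lines. DMC4, DMC6 and DMC9 were highest and DMC1 lay below every retina. Only the T58A contrast was called (2.26 ± 0.76 with adjusted p = 0.0266). Young lines stood at 1.71 ± 0.76 with adjusted p = 0.0797 and old lines at 0.68 ± 0.76 with adjusted p = 0.475. In a limma fit of young lines and retinas alone, SLC16A1 was called higher (1.71 ± 0.36 with adjusted p = 0.00388). Without DMC4 and DMC6 the T58A value was 0.68 ± 0.93 (adjusted p = 0.571), and the call was also lost without DMC4, DMC6 or any 1 of the 3 retinas, at an adjusted p of up to 0.0991. SLC16A3 was at 15276, 12808 and 12311 in the retinas, 19506, 37984 and 30926 in the young, 3358, 22931 and 11900.0 in the old and 4980.3, 9976 and 7655 in the T58A lines. The young lines lay above and the T58A lines below all retinas. None of the contrasts was called (1.08 ± 0.56 with adjusted p = 0.124, -0.46 ± 0.56 with adjusted p = 0.506 and -0.89 ± 0.56 with adjusted p = 0.2). In a limma fit of young lines and retinas alone, SLC16A3 was called higher (1.08 ± 0.24 with adjusted p = 0.00557).

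**Figure D2:**
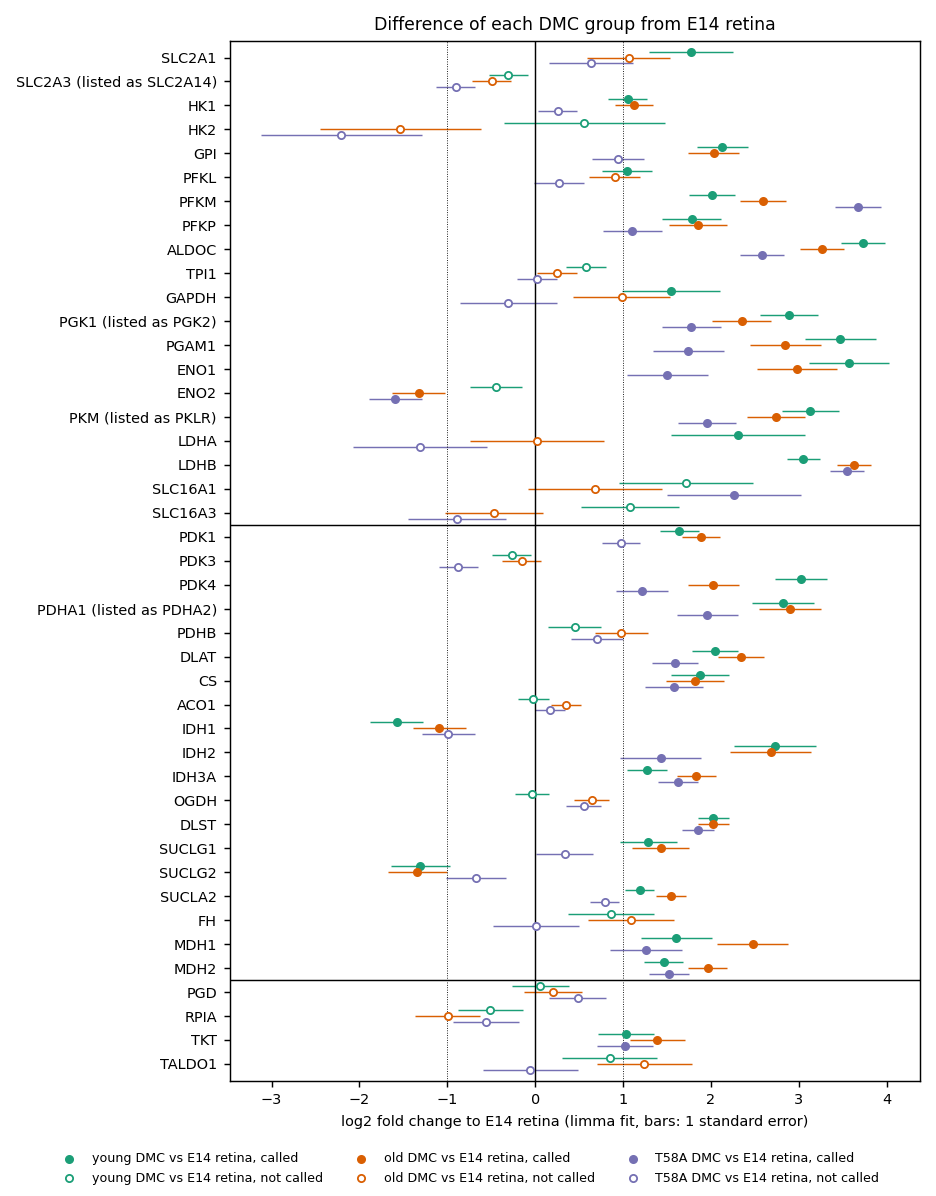
Fitted log2 fold change to E14 retina of each gene in young, old and T58A DMC lines, with bars of 1 standard error, filled points for genes called DE and open points for the rest. Of the 39 members under their own symbol, 24, 20 and 16 are filled to the right of 0 in young, old and T58A lines.

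Entry of pyruvate into the TCA cycle is set by the pyruvate dehydrogenase complex and by the PDK kinases, which switch the complex off by phosphorylation. DLAT, the acetyltransferase core of the complex, was at 1047, 1014 and 1002 in the retinas, 4836, 4159.8 and 3739 in the young, 4795, 5082 and 5699 in the old and 2240.0, 5082 and 2568 in the T58A lines. All lines were above all retinas (2.05 ± 0.26 with adjusted p = 7.76e-05, 2.34 ± 0.26 with adjusted p = 3.27e-05 and 1.59 ± 0.26 with adjusted p = 4.08e-04). PDHA1, the catalytic alpha subunit, was at 981, 902 and 984 in the retinas, 6618, 7116 and 6491 in the young, 5407, 8153 and 8237 in the old and 2285, 7464 and 3011 in the T58A lines. Its log2 fold changes of 2.82 ± 0.35, 2.90 ± 0.35 and 1.96 ± 0.35 were all called. PDHB, the beta subunit, was not called in any contrast. In old lines its log2 fold change of 0.98 with adjusted p = 0.017 fell just short of the fold limit, and it was called there under 3 alternatives. It ranged from 2205 to 2623 in the retinas and 2586 to 6082 in the lines.

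The inhibitory kinases rose beside the complex in part. PDK4 was at 755, 635 and 849 in the retinas, 4989, 8250.3 and 5333 in the young, 2510.2, 3005 and 3687 in the old and 1373, 2741 and 1367 in the T58A lines. All 3 contrasts were called, at 3.02 ± 0.30 with adjusted p = 1.39e-05 in young, 2.03 ± 0.30 with adjusted p = 1.89e-04 in old and 1.22 ± 0.30 with adjusted p = 0.00483 in T58A lines. Without DMC5 the T58A value of PDK4 was 0.88, under the fold limit. PDK1 was at 2318, 2013 and 2129 in the retinas, 8321, 5675 and 6366 in the young, 9856, 6879 and 7441 in the old and 3671, 5594 and 3698 in the T58A lines. Young (1.64 ± 0.22 with adjusted p = 1.11e-04) and old lines (1.89 ± 0.22 with adjusted p = 4.51e-05) were called. T58A lines (0.98 ± 0.22 with adjusted p = 0.00318) fell just short of the fold limit. PDK3 was called in no contrast, and in T58A lines its log2 fold change was -0.87 ± 0.22 with adjusted p = 0.00636, past the adjusted p but not the fold limit.

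CS, citrate synthase, which starts the cycle, was at 2198, 3051 and 2797 in the retinas, 8812, 10205 and 10348 in the young, 7663, 9275 and 11609 in the old and 4379.6, 13189 and 8686 in the T58A lines. The 3 contrasts were called (1.88 ± 0.33 with adjusted p = 6.99e-04, 1.82 ± 0.33 with adjusted p = 8.69e-04 and 1.58 ± 0.33 with adjusted p = 0.00208). ACO1, the aconitase of the cytosol, which also acts as the iron-sensing protein IRP1, ranged from 1739 to 2507 in the retinas and 2057 to 2931 in the lines and was called in none.

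The isocitrate dehydrogenases went in opposite directions. IDH2, the NADP-linked enzyme of mitochondria, was at 1499, 1815 and 1807 in the retinas, 9117, 11999 and 13130.0 in the young, 9583, 11483 and 11762 in the old and 2136, 11806 and 3830.0 in the T58A lines. All lines exceeded the retinas, DMC4 by the least (2.73 ± 0.46 with adjusted p = 5.14e-04, 2.68 ± 0.46 with adjusted p = 5.90e-04 and 1.43 ± 0.46 with adjusted p = 0.0216). IDH3A, a subunit of the NAD-linked enzyme of the cycle, was at 1700.0, 1526 and 1790.3 in the retinas, 4549.7, 3804 and 3796 in the young, 7586, 4990.5 and 5591 in the old and 3739, 5697 and 6449.5 in the T58A lines. All 3 contrasts were called (1.27 ± 0.23, 1.84 ± 0.23 and 1.63 ± 0.23). IDH1, the NADP-linked enzyme of the cytosol, was at 3266, 3531 and 3523 in the retinas, 1323, 928 and 1252 in the young, 1918, 1545 and 1409.8 in the old and 1990.3, 1000.1 and 2601 in the T58A lines. Every line lay below every retina. Young (-1.57 ± 0.30 with adjusted p = 0.00116) and old lines (-1.09 ± 0.30 with adjusted p = 0.01) were called lower, and T58A lines (-0.99 ± 0.30 with adjusted p = 0.0164) missed the fold limit. The old call of IDH1 was lost by a narrow margin without DMC3 (-0.998), and the T58A call of IDH2 without DMC5 (0.75) or retina 1 (adjusted p = 0.0667).

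The oxoglutarate dehydrogenase complex turns 2-oxoglutarate into succinyl-CoA. DLST, its core, was at 1514, 1786 and 1715 in the retinas, 6201, 7577 and 6729.6 in the young, 6371, 6444 and 7649.8 in the old and 4799.8, 6631 and 6903 in the T58A lines. The spread within each group was narrow and all contrasts were called (2.03 ± 0.18 with adjusted p = 7.61e-06, 2.03 ± 0.18 with adjusted p = 7.29e-06 and 1.85 ± 0.18 with adjusted p = 1.26e-05). OGDH, its first enzyme, was not called and ranged from 3082 to 4043 in the retinas and from 2979 to 6825 in the lines.

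Succinyl-CoA ligase pairs the shared alpha subunit SUCLG1 with the ATP-forming subunit SUCLA2 or the GTP-forming subunit SUCLG2. SUCLG1 was at 1861, 1790.3 and 1847 in the retinas, 4229, 4738 and 4484 in the young, 4554, 4798 and 5512 in the old and 1819.8, 4593 and 1486 in the T58A lines. It was called in young (1.29 ± 0.33 with adjusted p = 0.00627) and old lines (1.43 ± 0.33 with adjusted p = 0.00344) but not in T58A lines (0.34 ± 0.33 with adjusted p = 0.402). There DMC5 was at the level of the other lines and DMC4 and DMC6 at or below that of the retinas. SUCLA2 was at 1516, 1401 and 1449 in the retinas, 3596, 3346 and 3041 in the young, 4595, 3982 and 4196 in the old and 2047, 2936 and 2670.1 in the T58A lines. All lines were above all retinas. Young and old lines were called (1.19 ± 0.17 and 1.55 ± 0.17) but T58A lines missed the fold limit (0.79 ± 0.17 with adjusted p = 0.00199). SUCLG2 was at 1905, 1309 and 1638 in the retinas, 702, 654 and 586 in the young, 439, 608 and 937 in the old and 1212, 1371 and 604 in the T58A lines. It was called lower in young (-1.31 ± 0.34 with adjusted p = 0.00717) and old lines (-1.34 ± 0.34 with adjusted p = 0.00622) and not in T58A lines (-0.67 ± 0.34 with adjusted p = 0.114). DMC5 lay among the retinas.

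FH, fumarase, was at 2616, 2838 and 2880.5 in the retinas, 5740.5, 4647 and 4848 in the young, 6388, 4685 and 6965 in the old and 1118, 7203 and 2736 in the T58A lines. Young and old lines and DMC5 lay above the retinas and DMC4 far below. None of the contrasts was called (0.87 ± 0.49 with adjusted p = 0.159, 1.09 ± 0.49 with adjusted p = 0.08 and 0.01 ± 0.49 with adjusted p = 0.983). In a limma fit of old lines and retinas alone, FH was called higher (1.095 ± 0.171 with adjusted p = 0.00132). MDH1 and MDH2, the malate dehydrogenases of cytosol and mitochondria, were called in all 3 contrasts. MDH1 was at 2952, 2890.2 and 2859.6 in the retinas, 10434, 7390.3 and 8901 in the young, 21979, 13199.6 and 14549 in the old and 3659, 14981 and 6135 in the T58A lines. The log2 fold changes were 1.60 ± 0.41, 2.48 ± 0.41 and 1.26 ± 0.41, and DMC4 was the line nearest to the retinas. The T58A call of MDH1 was lost without DMC5 (0.71) or any 1 retina (adjusted p of up to 0.0548). MDH2 was at 3068, 3323 and 3573 in the retinas, 10655, 8199 and 8738 in the young, 14402, 11380.0 and 13209 in the old and 7930.1, 13760.0 and 7952 in the T58A lines. Every line exceeded every retina, with log2 fold changes of 1.46 ± 0.22, 1.96 ± 0.22 and 1.52 ± 0.22.

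Of the 4 pentose phosphate genes only TKT was called. This is 25% in each contrast, near the 19.6% to 20.5% of all genes called higher. The gene listed as TKT, for a transketolase of the branch that links pentoses to glycolysis, was at 4307, 4257 and 4523 in the retinas, 10355, 8025 and 8587 in the young, 10774, 11567 and 12000.4 in the old and 5151, 16018 and 8485 in the T58A lines. All lines were above all retinas. Each contrast was called, with little more than the fold limit in young (1.03 ± 0.32 with adjusted p = 0.017) and T58A lines (1.03 ± 0.32 with adjusted p = 0.0175). The old lines stood at 1.39 ± 0.32 with adjusted p = 0.00341. The young call was lost without DMC8 (0.93) and the T58A call without DMC5 (0.60) or retina 2 (adjusted p = 0.0503). TALDO1, transaldolase of the same branch, was at 1762, 1673 and 1956 in the retinas, 4115, 2902 and 2822 in the young, 4369, 2860.0 and 6104 in the old and 647, 4545 and 1736 in the T58A lines. No contrast was called (0.85 ± 0.54 with adjusted p = 0.21, 1.24 ± 0.54 with adjusted p = 0.0734 and -0.06 ± 0.54 with adjusted p = 0.937). In a limma fit of old lines and retinas alone, TALDO1 was called higher (1.24 ± 0.27 with adjusted p = 0.00549). The T58A lines spread from below the retinas in DMC4 to above them in DMC5. PGD, an NADPH-forming enzyme of the oxidative branch, was at 1895, 1796 and 1793 in the retinas, 2497, 1560.0 and 1771 in the young, 2077, 1541 and 2895 in the old and 1871, 4374 and 2037 in the T58A lines. Lines and retinas overlapped, and the largest log2 fold change was 0.48 ± 0.33 with adjusted p = 0.235. RPIA, ribose 5-phosphate isomerase, was at 367, 393 and 415 in the retinas, 201, 382 and 267 in the young, 146, 216 and 237 in the old and 411, 169.7 and 266 in the T58A lines. It stood at -0.99 ± 0.37 with adjusted p = 0.0413 in old lines, just within the fold limit, and was not called in the other contrasts (-0.51 ± 0.37 with adjusted p = 0.269 and -0.56 ± 0.37 with adjusted p = 0.224).

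Ratios of paired genes within a library compare the pairs across libraries without any scaling, although the ratio itself has no absolute meaning since lengths differ. The log2 ratio of ENO1 to ENO2 was 2.10 to 2.35 in the retinas and 4.10 to 7.02 in the lines. That of IDH1 to IDH2 was 0.96 to 1.12 in the retinas and -3.69 to -0.10 in the lines, with DMC4 (-0.10) and DMC6 (-0.56) above the other 7 lines. SUCLA2 to SUCLG2 moved from -0.33 to 0.10 in the retinas to 0.76 to 3.38 in the lines, and PDK1 to PDK3 from -0.14 to -0.07 to 1.44 to 2.41. In these 4 pairs retinas and lines did not overlap. The same held for LDHA to LDHB, PFKL to PFKM, SLC2A1 to SLC2A3 and SLC16A1 to SLC16A3. Retinas and lines overlapped in HK2 to HK1, PFKP to PFKM and MDH1 to MDH2. How often other pairs of genes separate was not counted. These ratios are a description without a test.

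LDHA to LDHB was 2.38 to 3.02 in the retinas and 1.35 to 2.30 in the young lines. It was lower in the old lines, at -3.35, 0.76 and -0.22 in DMC1, DMC2 and DMC3, and in the T58A lines, at -2.01, -1.42 and -3.15. DMC2 was thus the old line nearest to the young lines in this ratio, and all old and T58A lines lay below all young lines and retinas. PFKP to PFKM averaged 5.52 in the retinas, 5.29 in the young and 4.78 in the old lines, and was 1.95 to 3.63 in the T58A lines. PFKL to PFKM likewise reached its lowest values, 1.28 to 2.13, in the T58A lines. SLC16A1 to SLC16A3 stood at 0.76 and 0.42 in DMC4 and DMC6 and between -3.88 and -2.12 in all other libraries.

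**Figure D3:**
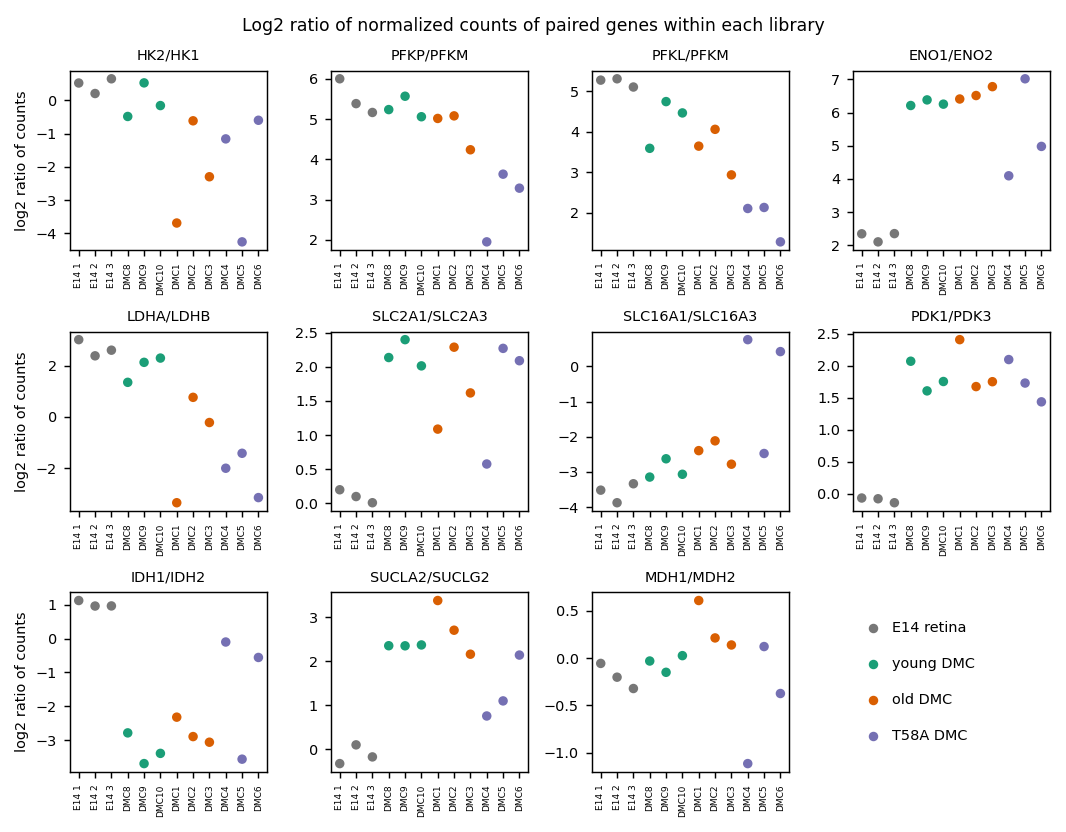
Log2 ratio of the normalized counts of paired genes in each of the 12 libraries, 1 point per library, coloured by group. All pairs but HK2/HK1, PFKP/PFKM and MDH1/MDH2 separate all lines from the retinas. LDHA/LDHB runs from 3.02 in retina 1 down to -3.35 in DMC1.

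Among the DMC lines, young and old lines were compared. They are different lines and not the same lines followed over time, so line and time in culture cannot be told apart. None of the 39 members was called, against 0.196% of all genes. At an unadjusted p under 0.05 there were 10 (9.34% of all genes), and limma with voom weights also called none. LDHA differed most, by 2.29 ± 0.77 with adjusted p = 0.339, followed by HK2 (2.09 ± 0.92 with adjusted p = 0.516) and SLC16A3 (1.55 ± 0.56 with adjusted p = 0.397), all higher in young lines. The largest values in the other direction were those of MDH1 (-0.87 ± 0.41 with adjusted p = 0.543) and OGDH (-0.68 ± 0.20 with adjusted p = 0.258).

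The spread among the 3 old lines was large for a few members, and the T58A lines spread more. Within the T58A lines the median range was 2.27-fold. HK2, GAPDH, SLC16A1, IDH2, FH, MDH1 and TALDO1 ranged over 4-fold there. How many of all genes range over 4-fold within a group was not counted. Within the young lines no member ranged over 4-fold, and the median range was 1.36-fold, compared with 1.18-fold among the retinas. Within the old lines the median range was 1.52-fold, and HK2 (9.21-fold), LDHA (13.7-fold), SLC16A1 and SLC16A3 (6.83-fold) ranged over 4-fold, each with DMC1 lowest and DMC2 highest. SLC2A1 had the same order with a range of 3.55-fold. DMC2 lay within the range of the young lines in HK2, SLC16A1 and SLC16A3, below it in LDHA and above it in SLC2A1, and DMC1 was lower than every retina in LDHA, HK2, SLC16A1 and SLC16A3. In LDHB the order of these lines was the reverse at its ends, with DMC1 highest of all libraries.

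Genes outside the enzymes that are known to be induced by low oxygen were looked at beside these members. Of 10 that were tested, 4 were called higher in young, 3 in old and 2 in T58A lines, and 0, 1 and 3 were called lower, where 19.6% to 20.5% of all genes were called higher and 23.0% to 24.8% lower. EGLN3, a hydroxylase of the oxygen sensor, was at 111, 151 and 208 in the retinas, 252, 472 and 448 in the young, 6.74, 239 and 45.1 in the old and 15.6, 20.3 and 18.4 in the T58A lines. P4HA1, a collagen hydroxylase subunit, was at 5155, 3722 and 3865 in the retinas, 4574, 12747 and 11642 in the young, 467, 7337 and 2960.4 in the old and 3634, 1307 and 1527 in the T58A lines. PFKFB4, an enzyme gene from the list of further glycolysis genes whose product makes an activator of phosphofructokinase, was at 12.4, 9.69 and 59.1 in the retinas, 406, 530.2 and 479 in the young, 27, 476 and 91 in the old and 35.7, 86 and 289 in the T58A lines. In these 3 genes, picked after their values were seen, DMC1 was the lowest of all 9 lines, DMC2 was the highest old line, and DMC9 the highest young line. Over the 10 genes of the low-oxygen list, DMC1 was the lowest line in 2 (EGLN3 and P4HA1), DMC2 the highest old line in 7, and DMC1 the highest old line in NDRG1 and MXI1. VEGFA, a growth factor for vessels, was at 195, 187 and 158 in the retinas, 804, 3771 and 2189 in the young, 881, 4093 and 1125 in the old and 2247, 568 and 4222 in the T58A lines, with DMC5 and not DMC1 lowest among the lines. CA9, a carbonic anhydrase, was at 87, 75.7 and 124 in the retinas, 1076, 1933 and 1511 in the young, 255, 319 and 456 in the old and 32.3, 34.7 and 3.45 in the T58A lines, highest in the young lines and below all retinas in the T58A lines. The oxygen supply of the cultures was not measured here.

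**Figure D4:**
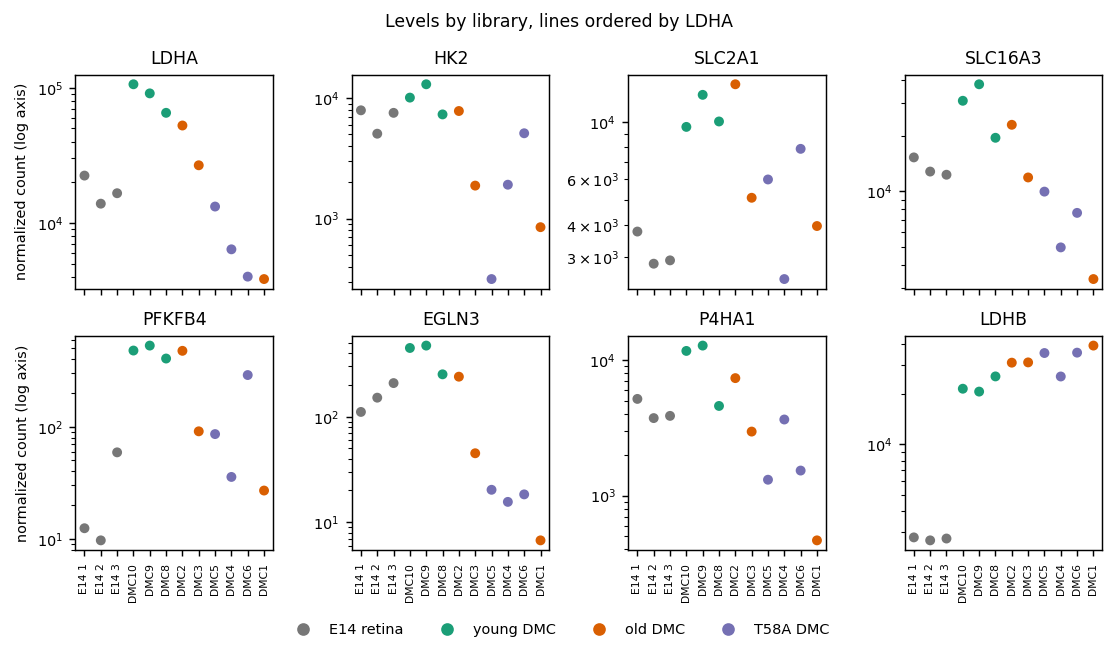
Normalized counts on log axes of 5 members (LDHA, HK2, SLC2A1, SLC16A3 and LDHB) and 3 further genes (PFKFB4, EGLN3 and P4HA1) in each library, with the retinas first and the 9 lines in falling order of LDHA from 106180 in DMC10 to 3840 in DMC1. DMC2 lies within the range of the young lines in HK2, SLC16A3, PFKFB4 and P4HA1. It lies below that range in LDHA and EGLN3 and above it in SLC2A1 and LDHB. The 3 further genes were picked after their values were seen.

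T58A and old lines, of like time in culture, were also compared. They are different lines, so line and the T58A change cannot be told apart. The paper reports that sex-specific genes of the W chromosome stood out in this comparison, and the column of DMC6 is labelled DMEM. The part of sex or medium was not tested. None of the 39 members was called, against 0.0393% of all genes. An unadjusted p under 0.05 was reached by 19 (19.7% of all genes) and limma with voom weights called none. Of 39 values 33 were below 0 with a median of -0.63, where that of all genes was -0.05. Of the lowest, ENO1 stood at -1.47 ± 0.46 with adjusted p = 0.133, and PFKM stood highest among those with an unadjusted p under 0.05 at 1.08 ± 0.26 with adjusted p = 0.0963. These values turned on which T58A lines were used. Without DMC5, 2 members were called higher and 13 lower, as were 1193 and 1427 of all genes, against 5 and 1 with it. Without DMC4 and DMC6 no member was called and the median was -0.11.

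DMC4 and DMC6 were both below the other 7 lines in 17 of the 39 members, 10 of them of the TCA cycle and 6 of glycolysis, which held for 14.9% of all genes. They were both above in 3 (PFKM, SLC16A1 and IDH1), which held for 14.4% of all genes. IDH2 was 4.13 times, FH 4.12 times, TALDO1 4.29 times, GAPDH 3.17 times and ENO1 3.13 times higher in DMC5 than in the geometric mean of DMC4 and DMC6, whereas HK2 and SLC16A1 were 0.101 and 0.192 times that mean. Counted singly against the retinas, DMC4 had 22 and DMC6 23 members above all 3 retinas, while the other lines had 29 to 32. For all genes this share was alike in all lines, at 42.7% to 44.3%. The dividing cell markers moved with these members, being lowest of all lines in DMC4 and DMC6, and their part in the result was not tested. With DMC5 as the only T58A line, log2 fold changes to retina were 1.375 for FH, 1.325 for SUCLG1 and 1.341 for TALDO1. PGD stood at 1.259, PDHB at 1.351, RPIA at -1.199 and SLC2A3 at -1.233. None of these genes was called in the T58A contrast with all 3 lines. SLC16A1, which was called there, fell to 0.68.

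T58A and young lines differ both in MYCN and in time in culture, and their comparison was added after the data were seen. PFKM was called higher and 7 members lower, against 6.17% of all genes called. The 7 were GPI, ALDOC, PGAM1, ENO1, ENO2, LDHA and PDK4. LDHA differed most, by -3.62 ± 0.77 with adjusted p = 0.0228, and PFKM stood at 1.66 ± 0.26 with adjusted p = 0.00928. Without DMC4 and DMC6 only ENO2 and HK2 were called, both lower, and in a fit of the 6 libraries alone none of the 15284 genes was called, so the calls rest on the spread shared with the other groups. Only PFKM and PDK4 kept their calls when each library in turn was left out, and the count of lower calls then ran from 1 (without DMC6, DMC9 or DMC10) to 12 (without DMC5, when 1872 of all genes were called lower, against 598 with it).

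Further genes of the pathways were read from a list of pathway genes. Of 22 for glycolysis and lactate that were tested, 7 were called higher and 6 lower in young lines, 6 and 6 in old lines, and 4 and 7 in T58A lines, with median log2 fold changes of -0.11, -0.07 and -0.45. These counts are near the shares of all genes called. LDHD, which oxidizes D-lactate, was at 32, 39.6 and 58.2 in the retinas, 314, 364 and 494 in the young, 1433, 809 and 390.5 in the old and 585, 439.7 and 709 in the T58A lines. It was above the retinas in every line and called in each contrast. HKDC1, a hexokinase-like gene, had 15 to 48 reads in the retinas and 0 to 2 in any line. BPGM, bisphosphoglycerate mutase, and PGM1, a phosphoglucomutase, were called lower in each contrast (log2 fold changes in young lines of -1.24 ± 0.27 and -1.83 ± 0.36), and the other phosphoglucomutase gene PGM2 higher (1.28 ± 0.23).

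Of 23 further genes around the TCA cycle, 7 were called higher and 1 lower in young lines. The counts were 13 and 3 in old and 7 and 3 in T58A lines. Median log2 fold changes were 0.68, 1.13 and 0.76. The shares called higher were 30.4%, 56.5% and 30.4%, against 20.5%, 20.3% and 19.6% of all genes. The shares called lower were 4.35%, 13.0% and 13.0%, against 23.0%, 23.5% and 24.8% of all genes. GOT2, the mitochondrial aspartate aminotransferase of the malate-aspartate shuttle, was at 3616, 4095 and 3824 in the retinas, 28045, 15854 and 21507 in the young, 24632, 16645 and 20149.6 in the old and 16313, 28431 and 17335 in the T58A lines. SDHA, the catalytic subunit of succinate dehydrogenase, was at 2543, 2696 and 2668 in the retinas, 9615, 9213 and 7708 in the young, 9022, 9712 and 12415 in the old and 6737, 9242 and 6435 in the T58A lines. All lines exceeded all retinas in both genes. PDP1, a phosphatase that switches pyruvate dehydrogenase on, was at 3021 to 3551 in DMC4 and DMC6 and at 615 to 1369.9 in the other lines, and PDK2, a further inhibitory kinase, was below all retinas in every line.

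Of 5 further genes of the pentose phosphate pathway, PGLS and PRPS2 were called higher in each contrast, as were 13.7% of all genes. PGLS, the lactonase of the oxidative branch, was at 1361, 1996 and 1844 in the retinas, 5036, 7842 and 8951 in the young, 4125, 6169 and 5339 in the old and 4493, 5677 and 8761 in the T58A lines, above the retinas in all lines. PRPS2, which makes phosphoribosyl pyrophosphate from ribose 5-phosphate, had 1 to 7 reads in the retinas, and its normalized counts were 35.3, 160.0 and 102 in the young lines, 211, 143 and 28.2 in the old lines, and 1890.0, 16.7 and 3889.7 in the T58A lines. DMC4 and DMC6 were thus far above all other lines.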

How the data were processed

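RNA from 3 E14 retinas and 9 DMC lines was sequenced, and per the submitters' notes and the methods the authors aligned reads to galGal6 with nf-core/rnaseq, kept reads of mapping quality 20 or more, counted them per gene with featureCounts 2.0.0 and scaled the counts with TMM factors from edgeR. The deposited values are a normalized signal per gene. All 205632 values above 0 are whole reads over 1 of 12 constants (0.842 to 1.198) that equal the TMM factors, yet the constant was that of the value's library in only 8.36%. The reads were recovered from the steps between values (largest distance from a whole number 6.4e-10) and divided by library total and own factor, on the scale of the mean library.

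Genes that reached 10 reads in 3 or more libraries (15284) were tested with limma 3.58.1 in R 4.3.3 on log2(normalized count + 1), with a mean-variance trend and all 4 groups in 1 fit. Benjamini-Hochberg adjustment covered all tested genes and every p is two-sided. DE meant an adjusted p of at most 0.05 and a log2 fold change of at least 1 in size. Summaries and plots used Python 3.11.15, and the fit was tested on simulated data. The members and lists were chosen with earlier results of these data known, so counts over them are descriptions. Every member is given by value, with all libraries for those called in a contrast, the 3 with the largest change in each pathway and those that ranged over 4-fold within a group. Alternatives covered scaling, filter, pseudocount, voom weights, separate fits, a replicate block and each library left out, and the fit without DMC4 and DMC6 and the contrast of T58A with young lines were added after seeing the data. Gene symbols follow the deposited table, with synonyms from RefSeq, and gene positions were not used here. Sequences of the genes were not used here. Single values of some further pathway and marker genes are not reported here.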

Additional observations from a re-analysis of the deposited data

Results flagged for a closer look

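The effects in T58A and young lines, both against the same retinas, differed for 8 members by a direct test (limma, T58A minus young, adjusted p of at most 0.05 and log2 difference of at least 1). Of all genes 6.17% were called. In a fit of the 6 libraries alone none of the 8 was called. Only PFKM and PDK4 kept their calls when each library in turn was left out. PFKM was higher in T58A lines, by 1.66 on the log2 scale. The other 7 were lower, with log2 differences of -3.62 for LDHA, -2.06 for ENO1, -1.80 for PDK4, -1.73 for PGAM1, -1.19 for GPI, -1.15 for ALDOC and -1.15 for ENO2. LDHA also lay above all retinas in every young line and below all of them in every T58A line (-3.62). SLC16A3 did the same with a difference of -1.97, and at an adjusted p of 0.0539 its difference was not called. The LDHA difference was not called without any 1 of DMC4, DMC6, DMC8, DMC9 or DMC10, with an adjusted p of up to 0.0886, and time in culture and MYCN-T58A cannot be told apart in it.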

How the results depend on the processing

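Of 83 called results of single genes, 58 kept their call under all of up to 24 alternatives, 25 lost it under at least 1 and none reversed. These counts include PGK1, PKM and PDHA1, listed under another symbol, which kept all their calls. Many results that were not called gained a call under at least 1 alternative. Examples in old lines are FH, called under 5, and TALDO1, under 6. In T58A lines against retinas IDH1 was called lower under 7, HK2 lower under 6 and PDK1 higher under 5. For these 3 genes 1 of the alternatives is the fit with DMC5 as the only T58A line. PKM was called lower in T58A than in young lines under 6, voom weights among them. In the T58A contrast to retina, members called higher numbered 9 with the deposited values as they stand and 10 to 17 with 1 library left out, against 16. Members called lower numbered 4 with the deposited values, 4 without TMM factors, 2 with median-of-ratios factors and 1 to 3 with 1 library left out, against 1. Without DMC4 and DMC6 the median log2 fold change of the members in this contrast was 1.34, against 0.70. With T58A against old lines, leaving out 1 library gave 0 to 2 higher and 0 to 13 lower, the highest counts without DMC5. With T58A against young lines, members called lower numbered 4 without TMM factors, 2 without DMC4 and DMC6, 0 in the fit of 6 libraries and 1 to 12 with 1 library left out, and those called higher 0 in the fit of 6 and 0 without DMC4 and DMC6. The cause of these moves was not tested. Without TMM factors the median of all genes was -0.45, -0.38 and -0.32 in young, old and T58A lines, and the members lay 1.32, 1.29 and 0.79 above it, against 1.32, 1.29 and 0.80. With the number shared by old lines and retinas as a replicate block, 22 members were called higher and 3 lower in the old contrast, against 20 and 3. Deviations of same-numbered libraries correlated at -0.022, 0.03 and 0.015. With 3 libraries a group such values cannot exclude a pairing, and the labels do not say that the numbers pair samples. With a pseudocount of 10, the mean log2 ratios of PFKL to PFKM in the retinas and of SUCLA2 to SUCLG2 in the young lines moved by more than 1 SD. With 3 libraries a group, the lines' own spread limits what can be called.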
